A study of Sus scrofa with 9 samples.

Results

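The genes described here encode mitochondrial ribosomal proteins, the protein components of the ribosome inside mitochondria. They were taken as every gene with a single symbol in the array's annotation that begins with MRPL or MRPS followed by a digit, which gave 53 of 12362 named genes. A probe set is a group of short probes read as 1 value, and a gene with several of them was represented by the brightest on average. Of the 53 members, 35 were assigned to the large ribosomal subunit and 18 to the small subunit, by symbol except for MRPS18A and MRPS30. MRPS18A and MRPS30 were counted with the large subunit, where structures of the mammalian mitochondrial ribosome place them despite their symbols. A further 24 pig genes with such symbols in the RefSeq gene table had no probe set named for them alone and were not analysed here.

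RNA was measured in kidney biopsies of 9 male Yorkshire pigs, on 1 Affymetrix array per animal and with 3 animals in each of 3 groups. In every animal the right kidney was kept warm without blood flow for 30 min, taken out, flushed and later put back into the same animal (autotransplantation), and the left kidney was removed in that operation. No Storage kidneys were re-implanted at once. SCS kidneys lay for 8 h in static cold storage, and NEVKP kidneys spent 8 h on normothermic ex vivo kidney perfusion, a circuit that perfuses the organ near body temperature. Biopsies were taken on day 3 after surgery, the No Storage kidneys had the same warm ischemia and surgery as the others, and no untouched kidney was analysed here.

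Mitochondria carry their own small genome, whose messenger RNAs encode core subunits of the respiratory chain and of ATP synthase. These messages are translated by a dedicated ribosome whose RNA comes from the mitochondrial genome and whose proteins are all encoded in the nucleus, made in the cytosol and imported. Some of these proteins descend from bacterial ribosomal proteins, and others were gained by mitochondria. The kidney tubule, above all its proximal segment, depends on oxidative metabolism and is rich in mitochondria.

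The values were log2 intensities, so a difference of 1 is a 2-fold change. Array medians ranged from 5.705 to 5.797. Some markers of kidney tissue were bright on all arrays. LRP2, the megalin receptor of proximal tubule, lay between 11.42 and 12.42. ATP6V1B1, a proton pump subunit of intercalated cells, lay between 12.35 and 12.98. Others were dim, among them SLC34A1, a phosphate transporter of proximal tubule, between 4.01 and 5.80. NPHS1, a podocyte marker, lay between 5.01 and 5.85, and PVALB, a distal tubule marker, between 3.32 and 5.63. None of the 53 members had a mean among the dimmest 25% of probe sets (under 3.92). Member means ran from 3.98 for MRPL36 to 10.44 for MRPL49, and since probe sets differ in brightness these levels do not rank the genes. The median SD of a member within a group was 0.139 in No Storage, 0.168 in SCS and 0.113 in NEVKP (n = 3 each), beside 0.14, 0.189 and 0.178 over all genes.

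The first comparison asks whether cold storage left a difference on day 3 from kidneys re-implanted at once. The mitochondrial ribosomal protein genes lay close to their No Storage levels in SCS. In limma, 0 of 53 members passed an adjusted p of 0.05, where 31 of 19124 probe sets, or 0.162%, passed (0.068% higher and 0.0941% lower). That count was 147 without SCS replicate 3, 158 without NEVKP replicate 2 and 0 to 2 without any other single array. At an unadjusted p under 0.05, 2 members were higher (MRPL17 and MRPL24) and 2 lower (MRPL28 and MRPL53), a share of 7.55% beside 15.5% of all probe sets (7.75% higher and 7.79% lower). The median member difference was -0.074 and that of all genes 0.00018, with 24 members above 0 and 29 below. Every member differed by less than 1.5-fold, from -0.43 for MRPL53 to 0.56 for MRPS6, and so did 11421 of all 12362 genes.

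Against the same No Storage arrays, NEVKP kidneys gave 0 of 53 members past an adjusted p of 0.05 in limma, and 0.0% of all probe sets passed. At an unadjusted p under 0.05 there was 1 member, MRPL28, which was lower, or 1.89% of members beside 9.07% of all probe sets (4.67% higher and 4.4% lower). The median member difference was again -0.074, with 15 members above 0 and 38 below, where 48.5% of all genes were above 0. Members above 0 numbered 23 without No Storage replicate 2, with a median of -0.014. With every array centred on its own median they numbered 8, with a median of -0.13 beside -0.066 over all probe sets. Both comparisons with No Storage share its arrays. Differences ran from -0.35 for MRPL2 and MRPL28 to 0.97 for MRPS6. Of the members, 52 of 53 differed by less than 1.5-fold, beside 11701 of all 12362 genes.

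Setting NEVKP directly against SCS, limma called 0 of 53 members and 0.0% of all probe sets at an adjusted p of 0.05. Unadjusted p under 0.05 was reached by MRPL53, higher in NEVKP, and MRPL17, lower in NEVKP, or 3.77% of members beside 7.5% of all probe sets (3.8% higher and 3.7% lower). The median member difference was -0.0089, with 26 members above 0 and 27 below. In the F test over all 3 groups 0 members passed, with 0.00523% of probe sets passing. The smallest member value there was an adjusted p of 0.335 in limma, and 2 members had an unadjusted p under 0.05, or 3.77% beside 12.8% of all probe sets.

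**Figure D1:**
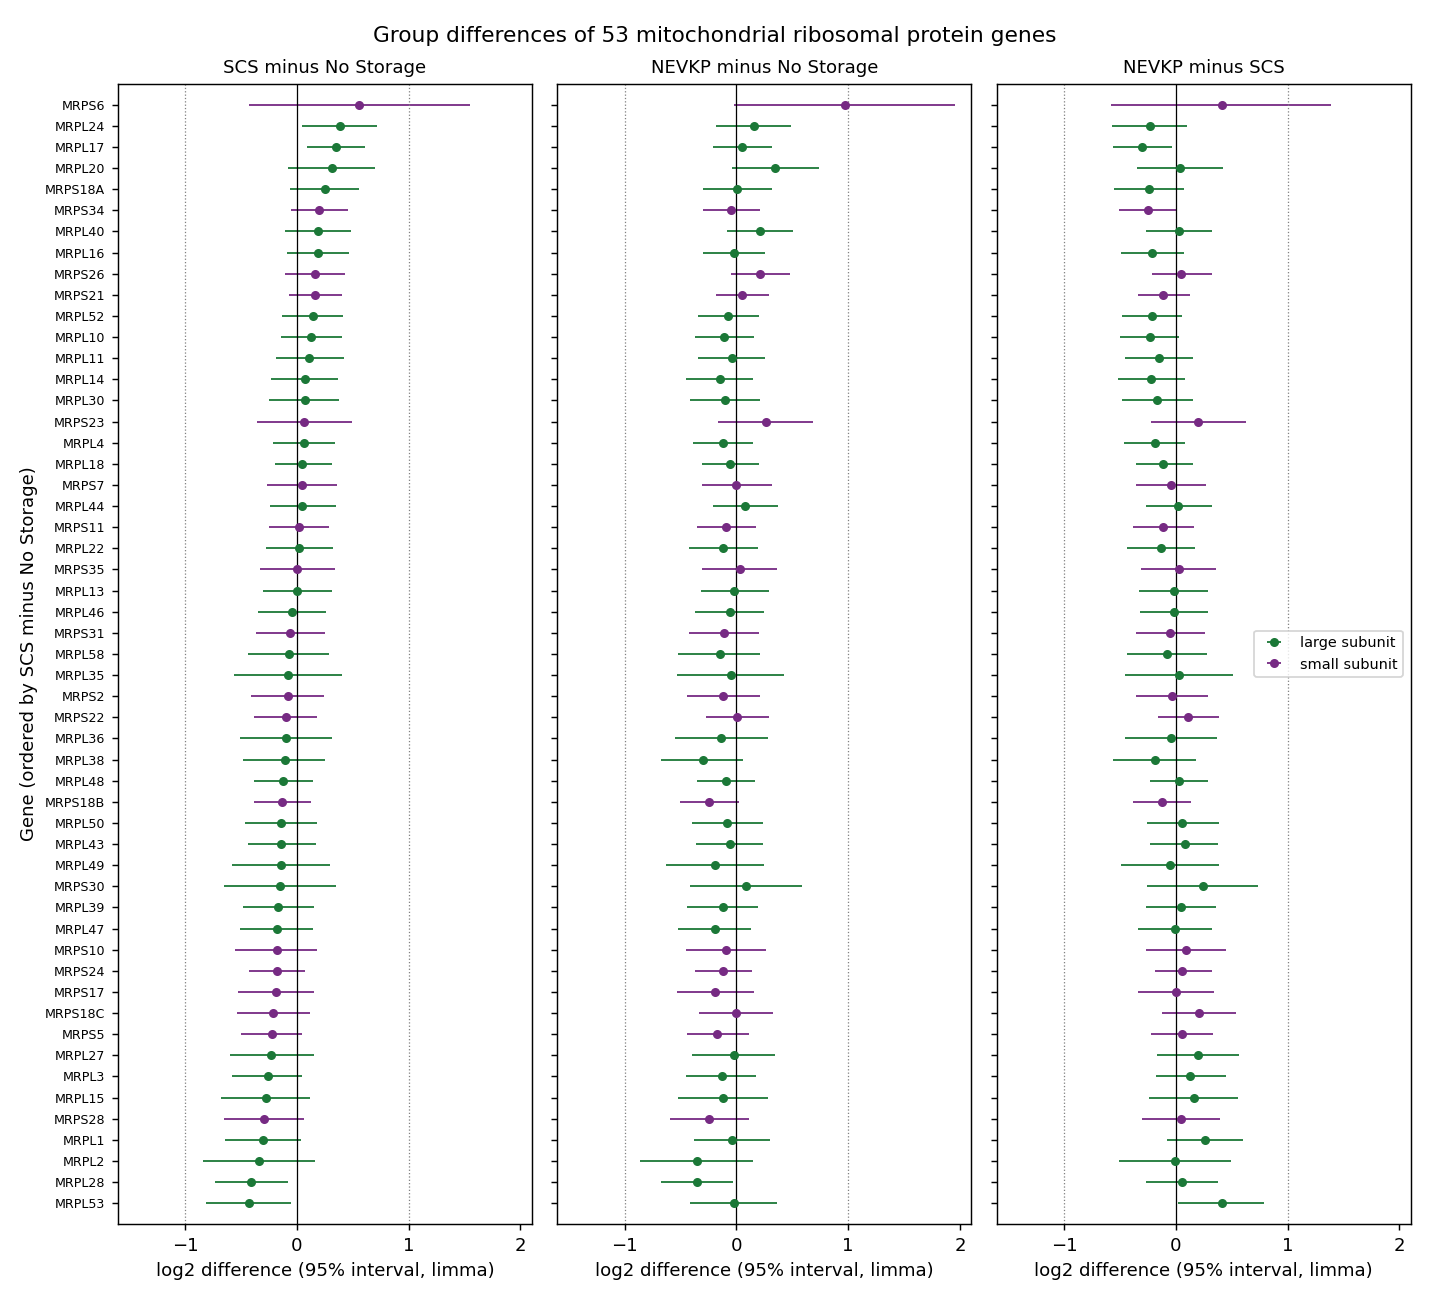
Log2 difference of each of the 53 mitochondrial ribosomal protein genes (points) with its 95% interval from limma (lines), in 3 comparisons given as panels; dotted lines mark 2-fold in either direction and colour marks the subunit. Nearly all intervals cross 0, and MRPS6 is the only gene whose interval reaches past 2-fold.

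The precision of 3 animals a group sets what these comparisons can show. The 95% interval of a member reached 0.31 to either side of its difference at the median, from 0.23 to 0.99. For 52 of 53 members the interval lay inside 2-fold in both directions in each of the 3 comparisons, MRPS6 being the exception. It lay inside 1.5-fold for 41 members in SCS against No Storage, 44 in NEVKP against No Storage and 48 in NEVKP against SCS. Over all 12362 genes the interval lay inside 2-fold for 11002, 11266 and 11515 in the same order. It lay inside 1.5-fold for 7138, 7901 and 8025 of them. Of the members, 16 overlap another coding gene in the RefSeq table, among them MRPL1, MRPL2, MRPL28, MRPL49, MRPL53, MRPS18B and MRPS6, and whether their probe sets also read the neighbour was not tested.

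The groups' arrays overlapped for most members. All SCS arrays lay above all No Storage arrays for 3 members (MRPL17, MRPS21 and MRPS34) and below them for 4 (MRPL28, MRPL53, MRPS24 and MRPS5), 13.2% of members beside 22.9% of all probe sets (11.3% above and 11.6% below). For NEVKP against No Storage they were MRPL20, MRPL40 and MRPS21 on the higher side and MRPL28, MRPS18B and MRPS5 on the lower, 11.3% beside 16.5% (7.94% higher and 8.57% lower). NEVKP arrays lay wholly below SCS arrays for 8 members (MRPL4, MRPL10, MRPL16, MRPL17, MRPL52, MRPS18A, MRPS21 and MRPS34) and wholly above for MRPL53 alone. That is 17.0% of members beside 11.8% of probe sets, of which 6.78% lay below and 5.01% above.

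The typical member level was also taken array by array. The median deviation of the 53 members from their No Storage means was -0.09, 0.11 and -0.0 in No Storage replicates 1, 2 and 3. It was 0.05, -0.16 and -0.01 in SCS replicates 1, 2 and 3, and -0.07, -0.06 and -0.07 in NEVKP replicates 1, 2 and 3. The No Storage arrays were measured from their own mean, so they lie around 0 by construction. The SCS arrays lay on both sides of 0 and overlapped them, and the NEVKP arrays were nearly alike.

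No Storage replicate 2 was the highest of its group for 35 of 53 members, beside 34.1% of all genes. It was the highest of all 9 arrays for 18 members, beside 11.2% of all genes. SCS replicate 2 was the lowest of all 9 arrays for 20 of 53 members, beside 19.4% of all genes. It was the highest for 7 members, beside 17.6% of all genes. This array also had the lowest weight (0.464) when limma estimated each array's reliability over all probe sets. Whether that bears on the low member values was not tested. Without SCS replicate 2 the median member difference of SCS from No Storage was 0.032, and without No Storage replicate 2 it was 0.014, both with the opposite sign to the value over all arrays.

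**Figure D2:**
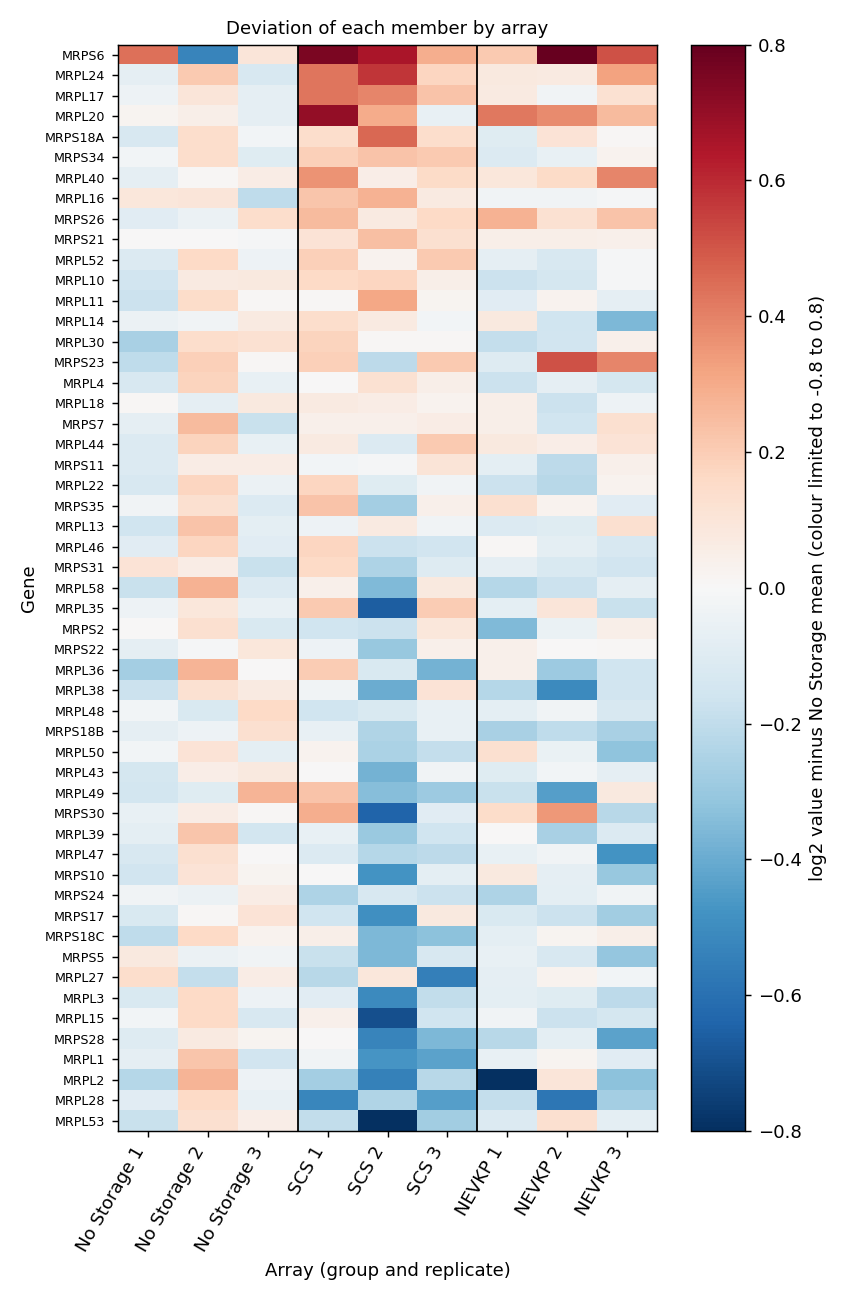
Deviation of each of the 53 members (rows, ordered by their SCS minus No Storage difference) from its No Storage mean on each array (columns), in log2 units, with colour ending at 0.8 either way. SCS replicate 2 holds most of the deep blue cells in the lower rows, while No Storage replicate 2 is pale red for most members.

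The subunits were described separately. The median difference of SCS from No Storage was -0.074 over the 35 large subunit genes and -0.072 over the 18 small subunit genes, and that of NEVKP from No Storage was -0.074 and -0.068, with 7 of 35 and 8 of 18 genes above 0. NEVKP differed from SCS by medians of -0.018 and 0.038, and the difference between subunits was not tested. Of the members, 34 descend from bacterial ribosomal proteins and 19 are found only in mitochondria, by a list written from general knowledge. Their median SCS differences were -0.039 and -0.074, and their NEVKP differences -0.097 and -0.06. On SCS replicate 2 the mitochondria-specific members had a median deviation of -0.26 and the bacterial homologues one of -0.05. SCS replicates 1 and 3 gave 0.16 and 0.04 for mitochondria-specific members, and 0.02 and -0.02 for bacterial homologues.

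Among large subunit members, MRPL17, a homologue of bacterial protein L17, had the smallest p in SCS. Its log2 values were 9.29, 9.43 and 9.26 in No Storage, 9.76, 9.72 and 9.56 in SCS, and 9.40, 9.30 and 9.45 in NEVKP. The SCS arrays lay above all 6 others, and No Storage and NEVKP overlapped. SCS differed from No Storage by 0.35 (SE 0.12, 95% interval 0.09 to 0.61, limma adjusted p = 0.194) and NEVKP from SCS by -0.30 (limma adjusted p = 0.648).

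MRPL24, a homologue of bacterial L24, which lies by the exit of the tunnel through which the new protein leaves the ribosome, was also higher in SCS by its values. These were 7.62, 7.90 and 7.56 in No Storage, 8.12, 8.26 and 7.86 in SCS, and 7.77, 7.76 and 8.01 in NEVKP. SCS replicate 3 fell below No Storage replicate 2, so the groups overlapped. The SCS difference was 0.39 (SE 0.15, limma adjusted p = 0.252), and the NEVKP difference from No Storage was 0.16 (limma adjusted p = 0.805).

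MRPL20, a homologue of bacterial L20, had 7.40, 7.43 and 7.31 in No Storage, 8.08, 7.68 and 7.32 in SCS, and 7.80, 7.76 and 7.63 in NEVKP. All 3 NEVKP arrays lay above No Storage, while the SCS arrays ran from inside the No Storage range to above every NEVKP array. NEVKP differed from No Storage by 0.35 (SE 0.18, limma adjusted p = 0.587) and SCS by 0.31 (limma adjusted p = 0.437).

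MRPL28, a homologue of bacterial L28, was the one member with an unadjusted p under 0.05 in both storage groups against No Storage. It had 6.46, 6.71 and 6.49 in No Storage, 6.03, 6.31 and 6.11 in SCS, and 6.36, 5.97 and 6.28 in NEVKP. All 6 arrays of stored kidneys lay below the 3 No Storage arrays. The differences were -0.41 in SCS (SE 0.14, 95% interval -0.73 to -0.08, limma adjusted p = 0.218) and -0.35 in NEVKP (interval -0.67 to -0.03, limma adjusted p = 0.53).

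MRPL53, a mitochondria-specific protein at the base of the stalk that recruits translation factors, gave the most negative SCS difference. Its values were 9.59, 9.90 and 9.82 in No Storage, 9.57, 8.97 and 9.49 in SCS, and 9.66, 9.90 and 9.69 in NEVKP. SCS replicate 2 was the lowest, and SCS replicate 1 was only 0.02 under the lowest No Storage array. SCS differed from No Storage by -0.43 (SE 0.17, limma adjusted p = 0.271) and NEVKP from SCS by 0.41 (limma adjusted p = 0.653). Over the alternatives tried the SCS difference ranged from -0.54 to -0.24.

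MRPL1 forms the mobile stalk on the side where spent transfer RNAs leave, and MRPL2 is a core protein by the peptidyl transferase centre, where peptide bonds are made. MRPL1 had 8.65, 8.94 and 8.57 in No Storage, 8.69, 8.25 and 8.29 in SCS, and 8.66, 8.74 and 8.63 in NEVKP. MRPL2 had 7.52, 8.02 and 7.71 in No Storage, 7.48, 7.21 and 7.53 in SCS, and 6.92, 7.85 and 7.42 in NEVKP. In both genes the groups overlapped, MRPL1 through SCS replicate 1 and MRPL2 through SCS replicate 3. The SCS difference was -0.30 for MRPL1 (limma adjusted p = 0.378) and -0.34 for MRPL2 (limma adjusted p = 0.525), and NEVKP differed from No Storage by -0.04 and -0.35.

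MRPL10 anchors the factor-binding stalk, and MRPL52 is a mitochondria-specific protein of the large subunit. MRPL10 had 6.71, 6.93 and 6.94 in No Storage, 7.02, 7.03 and 6.91 in SCS, and 6.69, 6.72 and 6.85 in NEVKP. MRPL52 had 8.93, 9.20 and 9.00 in No Storage, 9.23, 9.07 and 9.25 in SCS, and 8.97, 8.91 and 9.03 in NEVKP. In each the NEVKP arrays lay below the SCS arrays and overlapped the No Storage arrays. NEVKP differed from SCS by -0.23 for MRPL10 (limma adjusted p = 0.69) and by -0.21 for MRPL52 (limma adjusted p = 0.712).

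MRPL38 belongs to the central protuberance, the crest of the large subunit. It had 8.18, 8.47 and 8.42 in No Storage, 8.32, 7.95 and 8.46 in SCS, and 8.12, 7.84 and 8.20 in NEVKP. The NEVKP arrays reached from below to just inside the No Storage range, with a difference of -0.30 (SE 0.16, limma adjusted p = 0.619).

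MRPS18A and MRPS30 are the proteins that carry small subunit symbols but sit in the large subunit. MRPS18A had 8.15, 8.42 and 8.26 in No Storage, 8.42, 8.74 and 8.42 in SCS, and 8.18, 8.39 and 8.29 in NEVKP. MRPS30 had 7.17, 7.29 and 7.24 in No Storage, 7.52, 6.59 and 7.14 in SCS, and 7.38, 7.58 and 7.01 in NEVKP. MRPS18A was lower in all NEVKP than in all SCS arrays, by -0.24 (limma adjusted p = 0.714). MRPS30 was tight in No Storage (SD 0.06, n = 3) and spread in SCS (SD 0.47, n = 3), where replicate 1 was the second highest and replicate 2 the lowest of the 9 arrays.

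MRPL49, a mitochondria-specific protein, was the brightest of these probe sets. Its values were 10.39, 10.44 and 10.81 in No Storage, 10.77, 10.20 and 10.25 in SCS, and 10.36, 10.10 and 10.62 in NEVKP. MRPL36, a very short homologue of bacterial L36, had 3.79, 4.33 and 4.06 in No Storage, 4.26, 3.94 and 3.68 in SCS, and 4.10, 3.77 and 3.90 in NEVKP. MRPL44, which carries a ribonuclease III-like domain, had 3.83, 4.12 and 3.88 in No Storage, 4.01, 3.83 and 4.15 in SCS, and 4.02, 3.99 and 4.05 in NEVKP. The groups overlapped in all 3 genes, with differences from No Storage between -0.19 and 0.08. MRPL36 and MRPL44 lay just above the dimmest 25% of probe sets, where a change in RNA moves the log2 value less.

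Small subunit members showed 1 gene with a far wider spread than the rest. MRPS6, a homologue of bacterial S6, had 6.94, 5.97 and 6.60 in No Storage, 7.25, 7.15 and 6.79 in SCS, and 6.71, 8.68 and 7.01 in NEVKP. NEVKP replicate 2 was far above every other array, and the other 2 NEVKP arrays lay within the range of the other groups. NEVKP differed from No Storage by 0.97, or 1.95-fold (SE 0.44, 95% interval -0.02 to 1.96, limma adjusted p = 0.557), and SCS by 0.56 (limma adjusted p = 0.612). Without NEVKP replicate 2 the NEVKP difference was 0.36, and that of NEVKP from SCS was -0.2 in place of 0.41. In the RefSeq gene table of the Sscrofa11.1 assembly the gene SLC5A3, which encodes the sodium-coupled transporter of myo-inositol, an osmolyte of the kidney, lies wholly inside the span of MRPS6. SLC5A3 had no probe set named for it, and whether its RNA adds to the MRPS6 value was not tested.

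**Figure D3:**
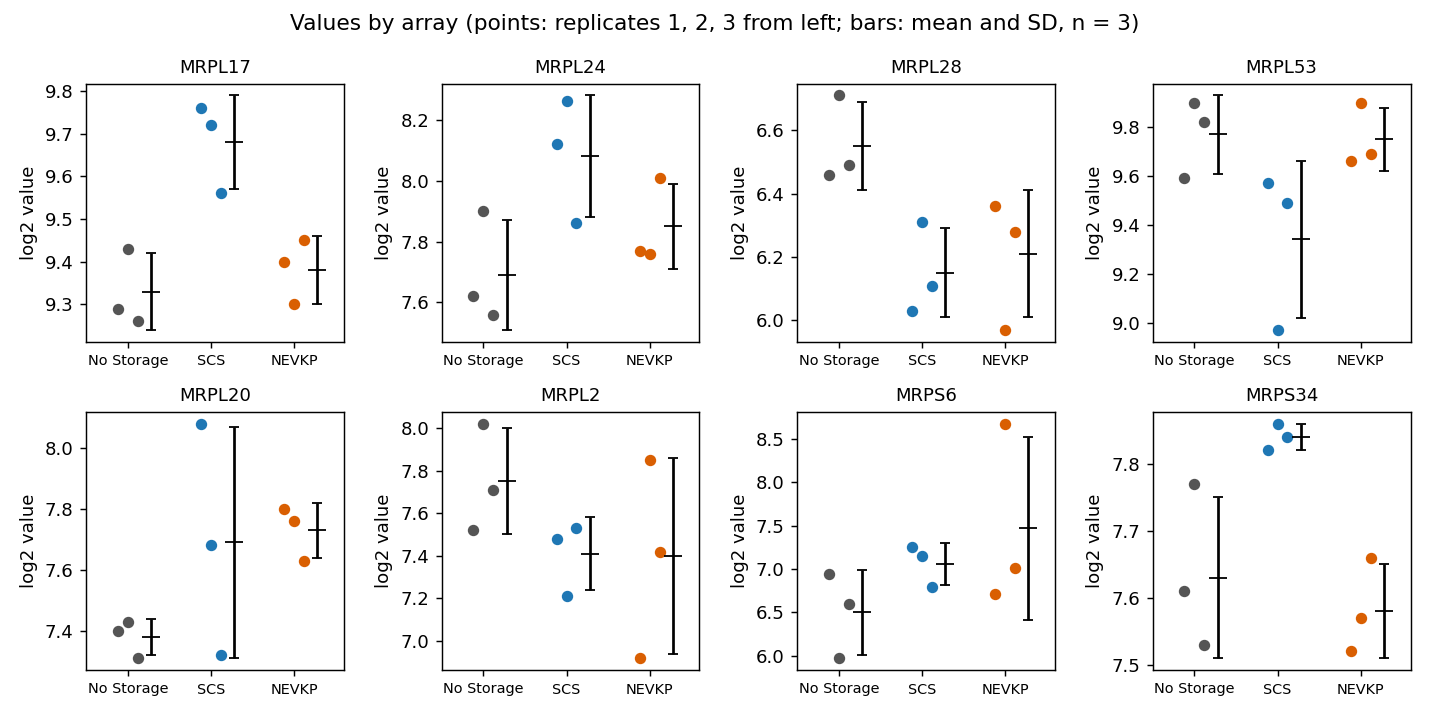
Log2 values of 8 members on each array (points, replicates 1 to 3 from the left within a group) with the group mean and SD (bars, n = 3); each panel has its own axis, which does not start at 0. MRPL17 and MRPS34 are higher in all 3 SCS arrays than in the others, MRPL28 is lower in all stored kidneys, and MRPS6 has 1 NEVKP array at 8.68.

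MRPS34, a mitochondria-specific protein, had 7.61, 7.77 and 7.53 in No Storage, 7.82, 7.86 and 7.84 in SCS, and 7.52, 7.57 and 7.66 in NEVKP. The 3 SCS arrays were nearly equal (SD 0.02, n = 3) and above all 6 others. SCS differed from No Storage by 0.20 (limma adjusted p = 0.436) and NEVKP from SCS by -0.25 (SE 0.11, limma adjusted p = 0.668).

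MRPS18B and MRPS28 are small subunit proteins related to bacterial S18 and S1. MRPS18B had 7.71, 7.74 and 7.91 in No Storage, 7.72, 7.54 and 7.72 in SCS, and 7.52, 7.58 and 7.52 in NEVKP. MRPS28 had 6.13, 6.30 and 6.25 in No Storage, 6.23, 5.70 and 5.87 in SCS, and 6.01, 6.15 and 5.80 in NEVKP. The NEVKP arrays were below all No Storage arrays for MRPS18B, by -0.24 (SE 0.12, limma adjusted p = 0.567). For MRPS28 each storage group overlapped No Storage, with differences of -0.29 in SCS (limma adjusted p = 0.416) and -0.24 in NEVKP (limma adjusted p = 0.678).

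MRPS23, a mitochondria-specific protein, had 7.24, 7.63 and 7.45 in No Storage, 7.63, 7.23 and 7.65 in SCS, and 7.34, 7.95 and 7.83 in NEVKP. NEVKP replicates 2 and 3 were the highest arrays and replicate 1 lay among the lowest, with a difference from No Storage of 0.27 (limma adjusted p = 0.706). Its second probe set gave 0.25 for the same difference. MRPL15, MRPL40 and MRPS18B also had 2 probe sets each, but these held identical values and add no second measurement.

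The remaining 33 members spanned a narrower range of differences, which follows from the rule that named the largest ones. Among them, MRPS21, a homologue of bacterial S21, had 7.94, 7.94 and 7.93 in No Storage and 8.05, 8.18 and 8.07 in SCS, a difference of 0.16 (limma adjusted p = 0.526). MRPS5, which lines the channel where messenger RNA enters, had 7.82, 7.69 and 7.71 in No Storage, 7.56, 7.38 and 7.61 in SCS, and 7.68, 7.61 and 7.43 in NEVKP. All stored kidneys lay below No Storage for MRPS5, by -0.22 in SCS (limma adjusted p = 0.431) and -0.17 in NEVKP (limma adjusted p = 0.727). MRPS21 and MRPS5 were chosen after their values were seen, so their separation is a description.

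Genes that work with this ribosome were taken from lists of its other proteins, its factors and its regulators. Of 3 measured ribosome proteins with other symbols (DAP3, PTCD3 and GADD45GIP1), 10 translation factors, 16 assembly factors, 14 mitochondrial transfer RNA synthetases and related amidotransferase subunits, and 12 genes of mitochondrial DNA expression, 0 passed an adjusted p of 0.05 in limma in any comparison. Their median SCS differences were -0.024, -0.1, -0.062, -0.15 and -0.011, and their NEVKP differences from No Storage -0.092, -0.12, -0.022, -0.23 and -0.05. NEVKP differed from SCS by medians of 0.014, 0.014, -0.026, -0.05 and 0.032. At an unadjusted p under 0.05 these lists held, in the same order, 0, 0, 1, 3 and 1 genes in SCS, 0, 0, 0, 3 and 0 in NEVKP against No Storage, and 0, 0, 0, 0 and 1 in NEVKP against SCS. Over all probe sets the shares were 15.5%, 9.07% and 7.5%. The largest share in these lists, which leave out the regulators, was 21.4%, for 3 of 14 synthetase genes in SCS and again in NEVKP against No Storage.

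The seryl-transfer RNA synthetase gene SARS2, which charges mitochondrial transfer RNA with serine, had 6.58, 6.73 and 6.38 in No Storage, 6.16, 6.06 and 6.18 in SCS, and 6.20, 6.24 and 6.29 in NEVKP. All stored kidneys lay below No Storage, by -0.43 in SCS (SE 0.12, limma adjusted p = 0.146) and -0.32 in NEVKP (limma adjusted p = 0.509). The synthetase gene CARS2 had 7.47, 7.52 and 7.75 in No Storage, 7.51, 7.45 and 7.57 in SCS, and 7.38, 7.20 and 7.07 in NEVKP, where it lay below both other groups by value (limma adjusted p = 0.472 against No Storage). MTERF2, a protein that binds mitochondrial DNA, had 6.78, 7.25 and 6.94 in No Storage, 6.53, 6.01 and 6.54 in SCS, and 6.85, 6.86 and 6.70 in NEVKP. All SCS arrays lay below the 6 others, by -0.63 against No Storage (SE 0.18, limma adjusted p = 0.136).

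Of 8 measured regulators of mitochondrial biogenesis, 1 passed, MYC, a transcription factor that drives ribosome production and growth. MYC had 7.51, 7.47 and 7.21 in No Storage, 8.76, 8.47 and 8.27 in SCS, and 8.09, 8.25 and 8.13 in NEVKP. It rose in SCS by 1.10 (SE 0.15, limma adjusted p = 0.0419), a call kept in 2 of 9 fits that left out 1 array, those without SCS replicate 3 or NEVKP replicate 2, with adjusted p from 0.03 to 0.184 in limma. In NEVKP it differed from No Storage by 0.76 (limma adjusted p = 0.299). PPRC1, a transcriptional coactivator of mitochondrial genes, differed by 0.42 in SCS (limma adjusted p = 0.258), and ESRRG, a nuclear receptor of oxidative metabolism, by -0.54 (limma adjusted p = 0.181). The list's median difference was -0.025 in SCS, -0.0037 in NEVKP against No Storage and -0.03 in NEVKP against SCS. At an unadjusted p under 0.05 in limma, 2 of the 8 regulators were higher and 1 lower in SCS, or 37.5% beside 15.5% of all probe sets. The share was 12.5% in NEVKP against No Storage, beside 9.07%, and 12.5% in NEVKP against SCS, beside 7.5%.

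A pair of related gene families were set beside these members. The 41 measured cytosolic ribosomal protein genes, which build the ribosome outside mitochondria, had a median SCS difference of 0.28, with 40 of 41 above 0 and 0 past an adjusted p of 0.05 in limma (17 at an unadjusted p under 0.05, or 41.5% beside 15.5% of all probe sets). The 50 measured nuclear genes for respiratory chain and ATP synthase subunits had a median of -0.12, with 11 of 50 above 0 and 0 past the threshold (8 at an unadjusted p under 0.05, or 16.0% beside the same 15.5%). In NEVKP against No Storage the medians were 0.11 and -0.021, and in NEVKP against SCS -0.15 and 0.082. The differences between the families were not tested.

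**Figure D4:**
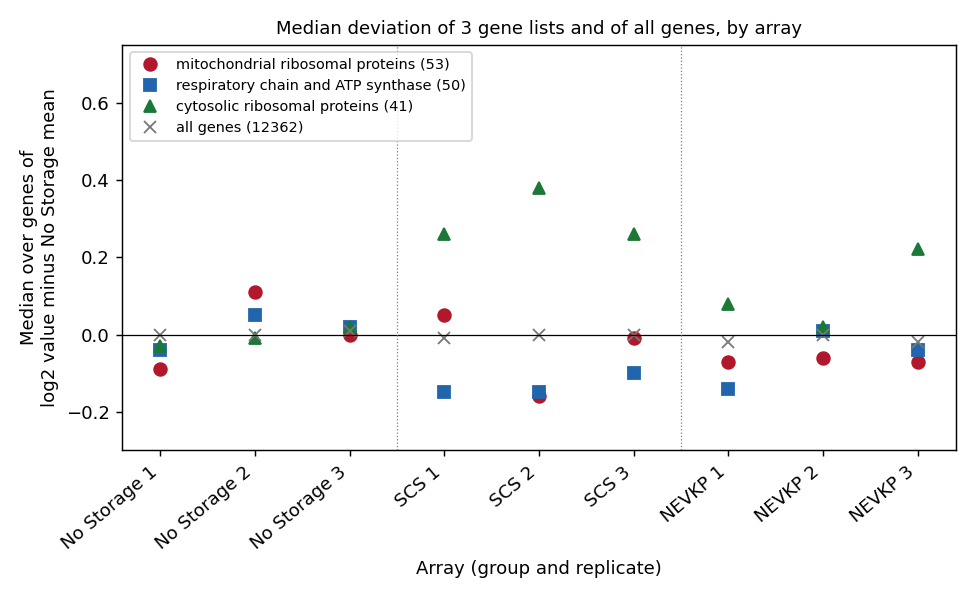
Median deviation from the No Storage mean (log2, vertical axis) on each array for 53 mitochondrial ribosomal protein genes, 50 respiratory chain and ATP synthase genes, 41 cytosolic ribosomal protein genes and all 12362 genes. The No Storage arrays lie around 0 by construction. The mitochondrial ribosomal genes lie on both sides of 0 in SCS, at -0.16 on SCS replicate 2, while cytosolic ribosomal genes lie between 0.26 and 0.38 on the SCS arrays.

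Markers of the kidney's cell types were summarised in the same way on these arrays. In a biopsy, fewer cells of a type and less RNA per cell cannot be told apart. The 13 measured proximal tubule markers had a median deviation of -0.62, -0.95 and -0.42 on SCS replicates 1, 2 and 3 and of -0.18, -1.04 and -0.38 on the NEVKP replicates, with 12 of 13 below No Storage in each group. Medians ranged from -0.92 to -0.59 in SCS and -0.27 to 0.6 in NEVKP for 7 markers of loop of Henle and distal tubule, and from -1.04 to -0.44 and -0.58 to -0.33 for 10 of collecting duct. They ranged from 0.21 to 0.23 in SCS and 0.27 to 0.56 in NEVKP for 10 leukocyte markers, from 0.62 to 1.02 and 0.63 to 0.86 for 9 of fibroblasts and matrix, and from 0.68 to 1.11 and 0.24 to 0.79 for 10 of tubular injury.

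For 5 proliferation markers the medians ranged from 0.38 to 0.88 in SCS and -0.23 to 0.4 in NEVKP. They ranged from -0.46 to 0.05 and -0.44 to 0.23 for 4 podocyte markers, from -0.14 to 0.12 and -0.59 to 0.3 for 5 endothelial ones, and from -0.19 to 0.11 and -0.1 to -0.06 for 4 of fat and muscle. On the No Storage arrays these list medians lay between -0.37 and 0.33. Log2 array values have no true 0, so no marker can be called absent. SCS replicate 2, where the mitochondrial ribosomal genes had their lowest median (-0.16), was the lowest SCS array for proximal tubule markers (-0.95) but not for those of loop and distal tubule or collecting duct. NEVKP replicate 2 had the lowest proximal tubule median of all arrays (-1.04) with the mitochondrial ribosomal genes at -0.06. The part of cell composition in the members' values was not tested.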

How the data were processed

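The authors deposited 1 log2 value per probe set and array, obtained with RMA (background correction, normalisation between arrays and a summary over probes). RMA and limma 3.34.14 are named per the submitters' processing notes. RNA (400 ng per array) was labelled for Affymetrix arrays, per the labels' protocols. The array scans were not used here, any filter on probe sets is not given in the sources used here, and no depth applies: the number of arrays limits precision. Intervals are 95% intervals from the moderated limma fit.

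All 19124 probe sets were fitted in R 4.3.3 by the moderated linear model of limma 3.58.1, at its default settings. All 9 arrays entered with no covariate besides group, leaving 6 residual and 4.12 prior degrees of freedom. P-values were adjusted by Benjamini-Hochberg over all probe sets within each comparison, and every p in the text comes from limma. No set test was run and no p was adjusted over the members alone. Each array came from another animal. The annotation gave 13323 probe sets a single symbol, and all 53 member symbols matched the RefSeq table (Sscrofa11.1) by symbol. Of the members, 16 overlap another coding gene there, so their probe sets may read both. One probe set that names MRPS28 together with another gene was left out.

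Members given in every array follow a rule: in each comparison the 5 of smallest unadjusted p and the 3 of largest positive and negative difference, the 3 of highest and of lowest mean, the 3 of largest spread within groups, and members whose probe sets disagree in sign. In each comparison up to 3 genes of each other mitochondrial list may be named. The members and lists were chosen with earlier results of these data known. Lists were written from general knowledge. The alternatives changed the model (replicate number as a block, array weights, a prior with trend and robust estimation, only the groups being compared) or the input (arrays centred, probe sets averaged per gene, the dimmest 25% dropped, each array dropped once). Dropping the pair of arrays with the lowest weights and dropping duplicate probe sets of identical values were alternatives added after the data had been seen. The default limma fit of SCS against No Storage was first tested on simulated data. The other comparisons, the F test and the alternatives were not tested in that way.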

Additional observations from a re-analysis of the deposited data

How the results depend on the processing

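No member passed an adjusted p of 0.05 in limma in any of the 3 comparisons under any of the alternatives run, with the count at 0 throughout. The smallest adjusted p of a member over these fits was 0.144 in SCS against No Storage, 0.28 in NEVKP against No Storage and 0.523 in NEVKP against SCS. Values of the 20 named members changed sign in 10 of 360 cases in SCS, 15 of 360 in NEVKP against No Storage and 24 of 360 in NEVKP against SCS. Many of these cases could not change a sign. The block, the other prior, the compared groups alone and dropping dim or duplicate probe sets leave a difference as it is. Dropping an array of the group not compared does so too. Most named members were also picked for small p or large differences, so these counts do not measure how stable a sign is. The median member difference of SCS from No Storage ranged from -0.13 to 0.032 when single arrays were left out. It was 0.032, with 29 of 53 members above 0, without SCS replicate 2 and NEVKP replicate 2, the arrays with the lowest weights. NEVKP replicate 2 does not enter this difference, so that fit repeats the values without SCS replicate 2 alone. With centred arrays the medians were -0.12 in SCS and -0.13 in NEVKP against No Storage and -0.017 in NEVKP against SCS, where all probe sets had medians of -0.037, -0.066 and -0.029. That of NEVKP from No Storage ranged from -0.11 to -0.014 when single arrays were left out, and that of NEVKP from SCS from -0.06 to 0.03. The count over all probe sets in SCS against No Storage was 31, and became 83 with a trended and robust prior, 93 with array weights, 82 without the dimmest 25%, 49 with centred arrays, 48 with probe sets averaged per gene and 0 without those arrays; it ranged from 0 to 158 when single arrays were left out. In NEVKP against SCS it was 1 with array weights and 0 to 1 when single arrays were left out. The cause of these shifts was not tested. Same-numbered arrays deviated from their group means with correlations of -0.139 to 0.131, and 1 of 9 arrays correlated best with its own number. These correlations show no pairing of the animals by number, but with 3 arrays a group they cannot exclude one. With the replicate block, 27 probe sets and 0 members passed in SCS against No Storage. Every group holds each replicate number, so the block cannot move a difference, and the medians stayed at -0.074, -0.074 and -0.0089 by construction. No call changed for a member.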
